A study of Mus musculus with 16 samples.

Results

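The homeostatic microglia genes are 29 genes by which resting brain microglia are commonly recognised, taken here as a list of symbols out of the 32285 genes in the files: the nucleotide receptors P2ry12, P2ry13 and P2ry6, the receptors Cx3cr1, Csf1r and Gpr34, the surface and secreted proteins Tmem119, Siglech, Selplg, Olfml3, Fcrls, Ly86, Entpd1, Itgam and Cst3, the transporters Slc2a5 and Slco2b1, the TGF-beta receptors Tgfbr1 and Tgfbr2 with Smad3, the transcription factors Sall1, Maf, Fli1 and Ikzf1, the enzymes and regulators Inpp5d, Rgs10, Ltc4s and Hpgds, and Crybb1. Each symbol matched 1 row of the files. All 29 passed the filter on low counts in microglial nuclei, where 8428 genes were tested.

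Microglia are the resident macrophages of the brain. In the healthy brain their identity depends on survival signals through the CSF1 receptor and on TGF-beta, which acts through its receptors and SMAD proteins together with factors such as PU.1, MAF and SALL1. The genes kept on in this state include nucleotide receptors that steer microglial processes towards injured cells, the fractalkine receptor that responds to a neuronal ligand, and lectins and adhesion molecules of the cell surface. Around protein aggregates and dying neurons microglia can enter a state described as disease-associated, in which genes such as Apoe, Lpl and Axl are high and many of the homeostatic genes are low.

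Nuclear RNA was sequenced from the hippocampus of 16 female mice aged 9 months. The mice were Ch25h+/+ or Ch25h-/-, and 4 mice of each genotype were Tau- and 4 were Tau+. Ch25h encodes the enzyme that makes the oxysterol 25-hydroxycholesterol. The study's title concerns this enzyme, innate immune signalling and tau pathology; the comparisons here are the tau effect (Tau+ against Tau-) and Ch25h loss (Ch25h-/- against Ch25h+/+). Which tau line was used, and which promoter drives the tau gene, is not given in the sources used here. Replicate numbers follow sample order only and pair no mice.

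The 16 libraries held 51270831 to 84870650 UMIs (unique molecular identifiers, 1 per captured transcript) and 7601 to 10567 nuclei each. The level of Ch25h over all named nuclei, as a mean ± SD over 4 libraries, was 0.214 ± 0.0423 CPM (counts scaled to a common library total) in Ch25h+/+ mice without tau and 0.518 ± 0.231 with tau. It was 0.348 ± 0.116 and 0.482 ± 0.125 CPM in the libraries labelled Ch25h-/-, without and with tau. Ch25h thus did not separate the genotypes, which are taken from the labels; its microglial UMIs, in the same order of groups, were 0, 32, 0 and 7. Prnp, whose promoter is used in several tau transgenes, read 84.6 ± 19.1 and 79.0 ± 12 CPM in the Tau- groups and 119 ± 9.58 and 125 ± 19.7 CPM in the Tau+ groups. Replicates 1 and 2 of each group lay on the other side of the first principal component from replicates 3 and 4 (15 of 16 libraries in microglia, 16 of 16 in DG granule neurons, 11 of 16 in inhibitory neurons). The labels name no batch, so these are called set 1 (replicates 1 and 2) and set 2 (replicates 3 and 4), and results for tau are also given within each set. Any 2 libraries shared 10 to 40 barcodes.

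Replicate 3 of Ch25h+/+ Tau+ and replicate 3 of the libraries labelled Ch25h-/- Tau+ stood apart from the other Tau+ libraries. Microglial nuclei were thinned to 800 UMIs, and shallower ones were left out, 1 to 29 per Tau+ and 3 to 48 per Tau- library. Of the nuclei kept in these 2 libraries, 25.9% and 33.1% had a UMI of 10 transcripts of activated microglia (Axl, Lpl, Cst7, Itgax, Spp1, Gpnmb, Csf1, Lilrb4a, Cd9 and Apobec1). This share was 50.6 to 74.4% in the other 6 Tau+ libraries and 25.7 to 39.1% in the 8 Tau- libraries. Results for tau are therefore given with and without these libraries.

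Microglia-like nuclei, called microglia below, formed 1 cluster of 5640 nuclei, with 160 to 597 per library, a median of 1473 UMIs and 1031 genes. All markers used for the name, among them C1qa, C1qb, Tyrobp, Trem2 and Dock8 and none of them a member, were at least 2-fold above all other nuclei. None of these markers was among the cluster's 10 leading genes by fold (Siglech, Inpp5d, Ikzf1 and Ly86, 4 members, were), and the median UMI count was 0.324 of that of all nuclei of the same libraries. Clustering without the 29 members returned 5640 nuclei, 5639 of them the same.

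Across 16 classes of nuclei, 23 of the 29 members had their highest pooled level in microglia, 5 in border-associated macrophages (P2ry6, Fcrls, Tgfbr2, Maf and Fli1) and 1, Smad3, in fibroblasts. Since the nuclei were clustered on these and other genes, the levels are a description without a test. For 16 members the microglial level was more than 10 times that of the highest class outside the macrophages. Siglech read 841 CPM in microglia, 318 in border-associated macrophages and 6.37 in T and NK cells, its next class outside the macrophages. That class held only 71 nuclei, so this low value and its rank are uncertain. Csf1r read 1024 CPM in microglia, 729 in border-associated macrophages and 10.2 in fibroblasts.

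Border-associated macrophages, a related population at the vessels and meninges, are a check on how specific the members are. Sall1, a zinc-finger factor needed for microglial identity, read 289 CPM in microglia and had 0 UMIs in border-associated macrophages, which allows up to 6.12 CPM (3 counts; counting error only). Slc2a5, the fructose transporter GLUT5, read 145 CPM in microglia and also had 0 UMIs there, with the same limit. Tmem119, a membrane protein used as a microglial marker, read 171 against 10.2 CPM, the latter from 5 UMIs. By contrast P2ry6 read 322 CPM in microglia and 479.6 in border-associated macrophages, and Maf 445 and 918.

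The members least tied to microglia were Smad3, Maf, Fli1, Ltc4s and Cst3, each less than 2 times as high in microglia as in the highest class outside the macrophages. Cst3, which encodes the secreted protease inhibitor cystatin C, read 2356 CPM in microglia, 1634 in astrocytes and 1920.2 in barcodes under 100 UMIs, which hold free RNA. For P2ry12 the free-RNA level was 77.0 CPM against 978 in microglia, and DG granule neurons read 113. P2ry12 (chr3:59216272-59262871) and P2ry13 (chr3:59207892-59210882, GRCm38, minus strand) lie inside Med12l, which is transcribed from the other strand and read 544 CPM in microglia and 291 in DG granule neurons.

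**Figure D1:**
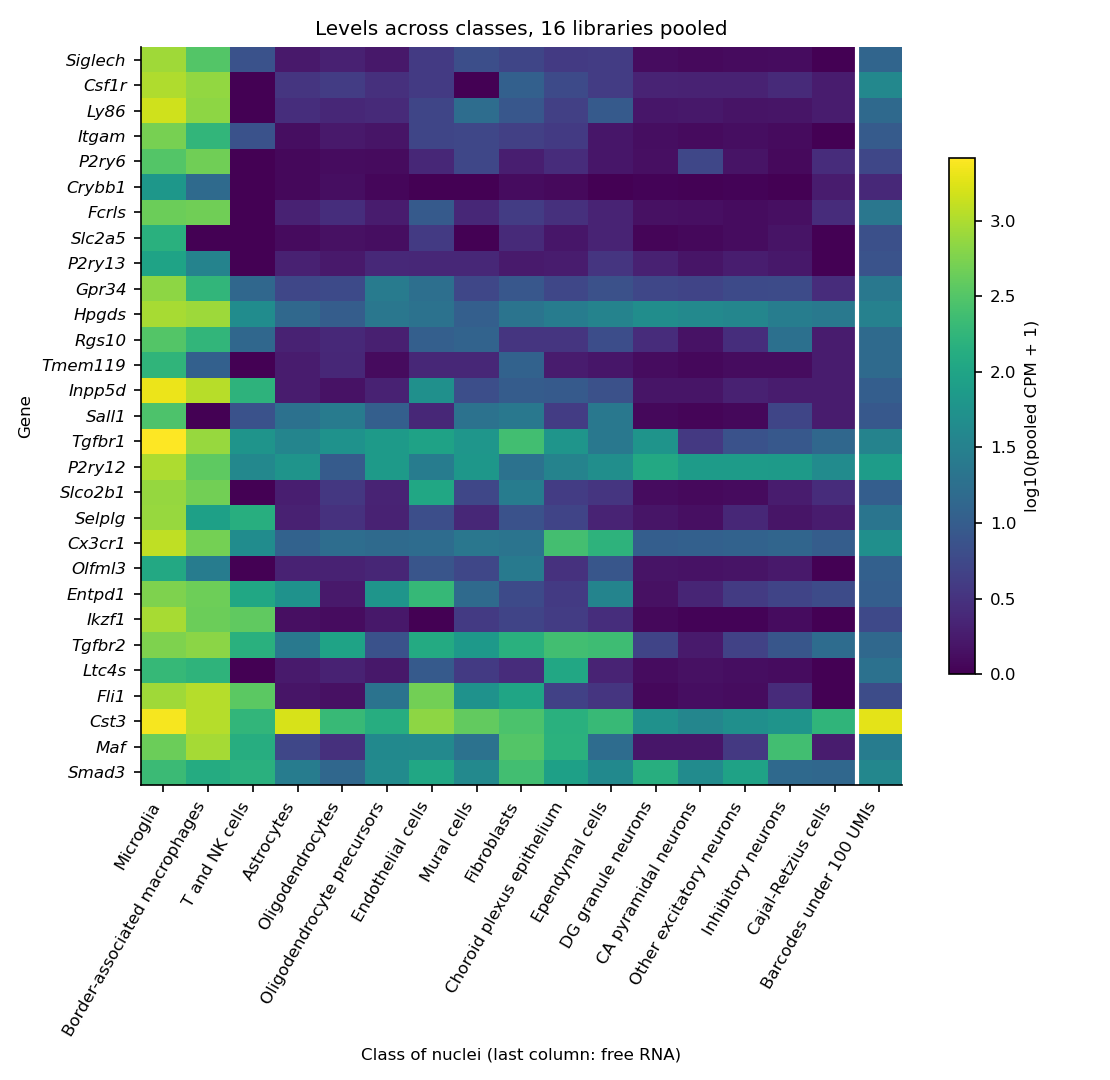
Levels of the 29 members (rows) in 16 classes of nuclei and in barcodes under 100 UMIs (columns), as log10 of the pooled CPM + 1 over 16 libraries. Rows run from the highest to the lowest ratio of microglia over the highest class outside the macrophages; the first 2 columns, microglia and border-associated macrophages, are bright in nearly all rows, and Cst3 is also bright in astrocytes and in free RNA.

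Promoters of 22 of the 29 members were found in RefSeq (GRCm38.p6), each from 250 bases before to 50 after the gene's start. The sequences of 4 members are shown because their values are described below: P2ry13 and Slc2a5, lower in Tau+ Ch25h+/+ microglia without overlap, Itgam, lower without overlap in each Ch25h genotype, and Ly86, the member that rose most. Capitals mark the letters GAGGAA, the core bound by PU.1 and related ETS factors, and CAGAC, a SMAD-binding element, each on either strand (TTCCTC and GTCTG on the other), with overlaps between the motifs allowed.
P2ry13 (chr3:59210833-59211132, minus strand): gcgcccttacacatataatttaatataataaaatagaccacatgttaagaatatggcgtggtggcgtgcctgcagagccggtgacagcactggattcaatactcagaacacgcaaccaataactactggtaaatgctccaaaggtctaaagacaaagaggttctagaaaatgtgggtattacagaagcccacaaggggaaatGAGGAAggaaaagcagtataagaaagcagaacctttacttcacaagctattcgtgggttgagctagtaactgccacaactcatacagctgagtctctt
Slc2a5 (chr4:150119094-150119393, plus strand): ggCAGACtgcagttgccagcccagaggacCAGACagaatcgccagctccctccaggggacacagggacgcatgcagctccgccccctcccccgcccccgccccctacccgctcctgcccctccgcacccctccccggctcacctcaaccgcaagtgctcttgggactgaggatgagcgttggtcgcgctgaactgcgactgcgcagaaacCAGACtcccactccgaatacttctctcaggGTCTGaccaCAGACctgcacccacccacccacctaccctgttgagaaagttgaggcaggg
Itgam (chr7:128062390-128062689, plus strand): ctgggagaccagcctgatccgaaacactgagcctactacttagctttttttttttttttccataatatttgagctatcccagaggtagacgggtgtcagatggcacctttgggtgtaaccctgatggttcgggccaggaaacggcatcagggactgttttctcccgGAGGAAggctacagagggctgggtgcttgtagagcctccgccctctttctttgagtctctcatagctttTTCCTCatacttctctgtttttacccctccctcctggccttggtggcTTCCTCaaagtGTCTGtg
Ly86 (chr13:37345095-37345394, plus strand): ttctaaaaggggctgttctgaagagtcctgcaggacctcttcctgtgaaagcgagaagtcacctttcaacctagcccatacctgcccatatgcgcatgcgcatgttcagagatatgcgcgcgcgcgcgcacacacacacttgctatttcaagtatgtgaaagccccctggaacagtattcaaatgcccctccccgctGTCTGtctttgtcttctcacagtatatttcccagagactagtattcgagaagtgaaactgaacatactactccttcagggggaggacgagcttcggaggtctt

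Itgam had 3 matches to GAGGAA and 1 to CAGAC, P2ry13 had 1 and 0, Slc2a5 had 0 and 5, and Ly86 had 0 and 1. Of the 22 member promoters 10 held GAGGAA (Inpp5d, Cst3, P2ry13, Fcrls, Hpgds, Siglech, Slco2b1, Itgam, Tgfbr2 and Ltc4s), against 28.3% of all 27025 promoters of that length. CAGAC was in 16 of 22, against 49.7% of all. The MAF half-site TGCTGA was in 3 of 22 (Cst3, Fcrls and Crybb1), against 19.1% of all. A match is a string of letters and was not tied to binding here.

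Tau was accompanied by lower levels of most homeostatic genes in microglia. The members were chosen with earlier results of these data known, so their counts and shares, here and below, are a description. Over both Ch25h genotypes 17 of the 29 members changed, 15 of them lower and 2 higher, where 8.88% of all 8428 genes tested were called (3.65% lower and 5.22% higher; edgeR's quasi-likelihood test, Benjamini-Hochberg adjusted p under 0.05). The largest falls among the 15 were in Crybb1, Slc2a5, Tmem119 and P2ry13, with log2 fold changes of -1.55, -1.06, -0.91 and -0.81. Ly86 and Tgfbr2 rose. The log2 fold change was negative for 27 of 29 members and for 52.1% of all genes, with medians of -0.37 and -0.01. No member had all 8 Tau+ libraries below or above all 8 Tau- libraries, against 0.356% of genes lower and 0.51% higher without overlap.

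Replicate 3 was the highest library of both Tau+ groups for 8 of the 12 members plotted by library. Without both Tau+ replicates 3, left out after the data were seen and so given as a description, 21 members and 1129 of all 8647 genes were called, and the members' median was -0.51. Within set 1 the counts were 18 members and 927 of all 9784 genes, with a members' median of -0.48. In the full fit they were 17 and 748 of 8428, so calls over all genes rose with those of the members. Within set 2, where 5 of 7533 genes were called, it was 0 with a median of -0.29, so none of these 17 calls held in set 2 alone. With predicted doublets kept, 9 members and 961 of all 11285 genes were called, and Csf1r, Gpr34, Inpp5d, Itgam, Maf, P2ry12, Sall1 and Slco2b1 were not among them. Depth moved with tau: the median UMI count per microglial nucleus was 1369.5 to 2028 in Tau+ and 1076 to 1594.5 in Tau- libraries, and microglia were 2.92 to 6.45% and 2.06 to 4.42% of nuclei. With nuclei of at least 1000 UMIs only, 16 members and 708 of all 7736 genes were called. The part of depth in single values was not tested.

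**Figure D2:**
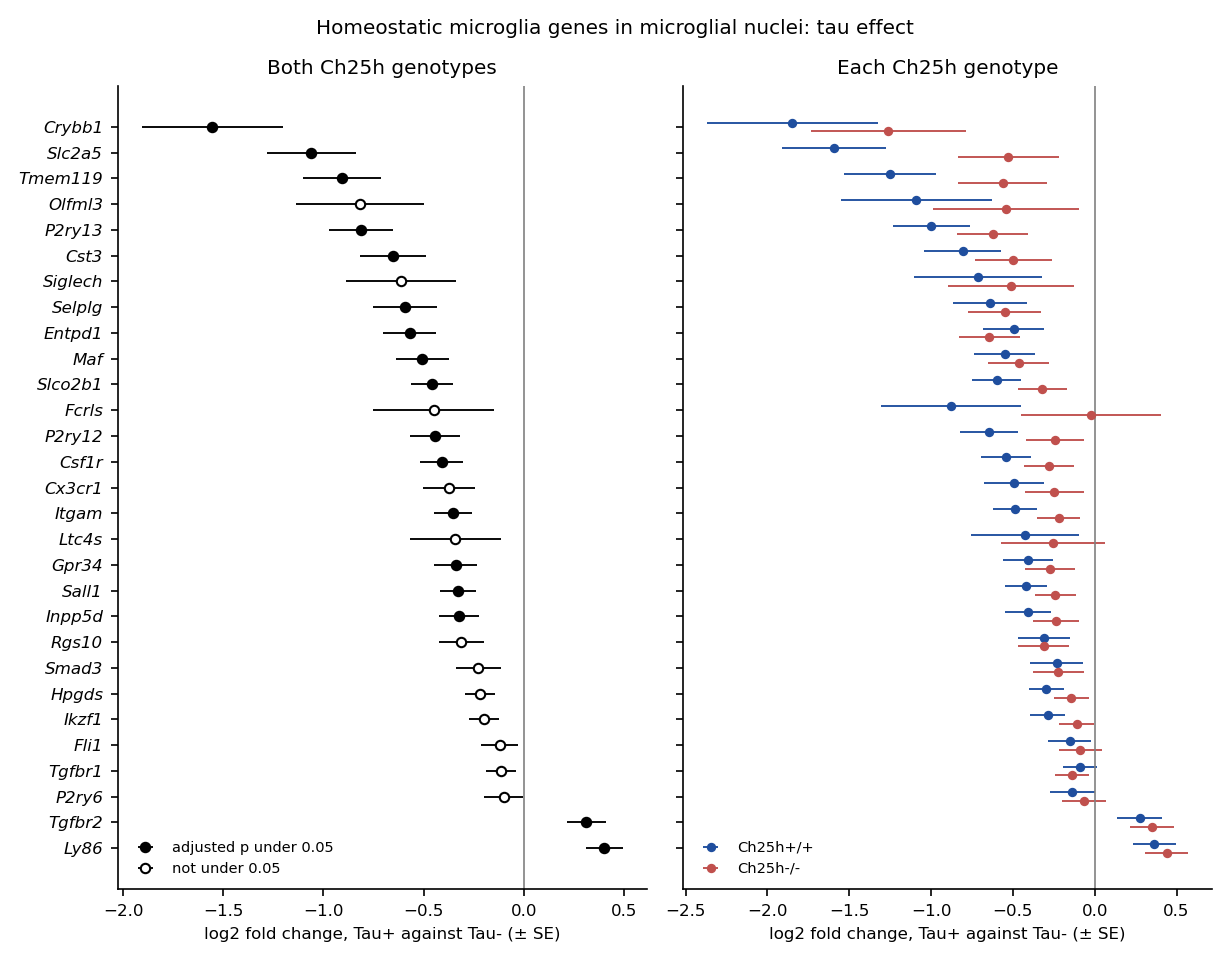
Log2 fold change of each member in microglial nuclei, Tau+ against Tau-, with the standard error as bars, over both Ch25h genotypes (left; filled points have an adjusted p under 0.05) and in each genotype (right; blue Ch25h+/+, red Ch25h-/-). On the left 27 points lie below 0, of which 15 are filled, and the 2 points above 0, Tgfbr2 and Ly86, are filled.

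Of the 3 nucleotide receptors, 2 fell. P2ry12, the ADP receptor that directs microglial processes to sites of injury, read 1329.6, 1259, 1574 and 1138 CPM in Ch25h+/+ Tau-, 663, 823, 1164 and 768 in Ch25h+/+ Tau+, 1253, 1065, 1191 and 1427 for libraries labelled Ch25h-/- Tau- and 759, 875, 1293 and 1249.6 in those labelled Ch25h-/- Tau+ (replicates 1 to 4 in order). In Ch25h+/+ Tau+ replicate 3 lay above the lowest Tau- library, and replicates 3 and 4 of the libraries labelled Ch25h-/- Tau+ lay within the Tau- range. The log2 fold change of P2ry12 with tau was -0.44 ± 0.12 (SE), adjusted p = 0.0284, and the call was lost in 7 of the 16 fits that left out 1 library (highest adjusted p = 0.0641). P2ry13, a second ADP receptor, read 137, 111, 154 and 133 CPM in Ch25h+/+ Tau-, 48.7, 56.7, 108 and 68.5 in Ch25h+/+ Tau+, 128, 145, 175 and 147 for libraries labelled Ch25h-/- Tau- and 66.7, 86.1, 144 and 90.8 in those labelled Ch25h-/- Tau+. All 4 Tau+ libraries were below all 4 Tau- libraries in Ch25h+/+, while replicate 3 overlapped in Ch25h-/-. P2ry13 fell by 0.81 ± 0.16 (SE), adjusted p = 0.00197, from 29 or more UMIs per library. P2ry6, a receptor for UDP linked to phagocytosis, had a fold change of -0.10 ± 0.10 (SE), adjusted p = 0.623.

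Among the other receptors Csf1r and Gpr34 fell. Csf1r (chr18:61100598-61132149), the receptor for CSF1 and IL-34 on which microglial survival depends, read 1188, 1173, 1589 and 1464 CPM in Ch25h+/+ Tau-, 707, 894, 1184 and 940.2 in Ch25h+/+ Tau+, 1159.8, 1112, 1362 and 1509.7 for libraries labelled Ch25h-/- Tau- and 835, 1031, 1297 and 1082 in those labelled Ch25h-/- Tau+. The highest Tau+ library in each genotype, replicate 3, reached into the Tau- range. Its tau effect was -0.41 ± 0.11 (SE), adjusted p = 0.0168. Gpr34, a receptor for lysophosphatidylserine, read 839, 886, 907 and 803 CPM in Ch25h+/+ Tau-, 533, 590.1, 859.8 and 630.0 in Ch25h+/+ Tau+, 758, 786, 907 and 1055 for libraries labelled Ch25h-/- Tau- and 590.5, 623, 936 and 756 in those labelled Ch25h-/- Tau+. Only replicate 3 of each Tau+ group was above the lowest Tau- library of its genotype. Gpr34 had -0.34 ± 0.11 (SE), adjusted p = 0.0467, and the call was lost in 13 of the 16 fits that left out 1 library (highest adjusted p = 0.119). Cx3cr1, the receptor for the neuronal chemokine fractalkine, read 1527, 1317, 1977 and 1556 CPM in Ch25h+/+ Tau-, 892, 947, 1579 and 1124 in Ch25h+/+ Tau+, 1310.4, 1373, 1785 and 1699 for libraries labelled Ch25h-/- Tau- and 998, 1113, 1608 and 1476 in those labelled Ch25h-/- Tau+. Replicates 1 and 2 were the lowest of each Tau+ group and replicate 3 the highest. Cx3cr1 did not pass the test, at -0.37 ± 0.13 (SE), adjusted p = 0.0842.

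Surface and secreted proteins made up 9 members, of which 5 fell and 1 rose. Tmem119 read 313, 224, 414 and 262 CPM in Ch25h+/+ Tau-, 87.1, 105, 216 and 126 in Ch25h+/+ Tau+, 223, 255, 195 and 267 for libraries labelled Ch25h-/- Tau- and 107, 135, 237 and 171 in those labelled Ch25h-/- Tau+. In Ch25h+/+ the groups did not overlap (in Ch25h-/- they did, through replicate 3), with means of 303 ± 82.4 CPM in Tau- and 134 ± 57.5 in Tau+ (SD, n = 4). Tmem119 fell by 0.91 ± 0.20 (SE), adjusted p = 0.00786. Selplg, the P-selectin ligand PSGL-1, read 1077, 994, 1054 and 1248 CPM in Ch25h+/+ Tau-, 409, 674, 1094 and 664 in Ch25h+/+ Tau+, 1115, 997, 1114 and 1237 for libraries labelled Ch25h-/- Tau- and 593, 632, 1014 and 818 in those labelled Ch25h-/- Tau+. Replicate 3 of each Tau+ group was within the Tau- range and the other 3 were below it. Its tau effect was -0.59 ± 0.16 (SE), adjusted p = 0.0266, lost without Ch25h+/+ Tau+ replicate 4, Ch25h+/+ Tau- replicate 4, replicate 1 or 2 of the libraries labelled Ch25h-/- Tau+ or replicate 4 of those labelled Ch25h-/- Tau- (highest adjusted p = 0.0614).

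Entpd1, the ectonucleotidase CD39 that breaks down extracellular ATP and ADP, read 666, 667, 828 and 964 CPM in Ch25h+/+ Tau-, 382, 480.5, 763 and 601 in Ch25h+/+ Tau+, 776, 722, 736 and 933 for libraries labelled Ch25h-/- Tau- and 371, 489, 618 and 554 in those labelled Ch25h-/- Tau+. Here the groups did not overlap in the libraries labelled Ch25h-/- and overlapped through replicate 3 in Ch25h+/+. The tau effect was -0.57 ± 0.13 (SE), adjusted p = 0.00933. Entpd1 (chr19:40612366-40741602) lies 6.14 Mb from Ch25h on chromosome 19, and its log2 fold changes for Ch25h loss were -0.12 ± 0.19 in Tau+ and 0.03 ± 0.19 in Tau-.

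Itgam, the integrin chain CD11b of a complement receptor, read 584, 578, 839.7 and 574 CPM in Ch25h+/+ Tau-, 443, 478, 523 and 399 in Ch25h+/+ Tau+, 613, 607, 626 and 713 for libraries labelled Ch25h-/- Tau- and 465, 565, 597 and 569 in those labelled Ch25h-/- Tau+. All Tau+ libraries were below all Tau- libraries in each Ch25h genotype, although the highest library labelled Ch25h-/- Tau+ was above the lowest Ch25h+/+ Tau- library. Itgam had -0.35 ± 0.09 (SE), adjusted p = 0.0161, which was not called within set 1 or set 2 alone. Cst3 read 4804, 2729, 4048 and 2694 CPM in Ch25h+/+ Tau-, 1268, 1979, 2688 and 2256 in Ch25h+/+ Tau+, 3013, 3208, 2423 and 3565 for libraries labelled Ch25h-/- Tau- and 1600.1, 2092, 2433 and 2540.3 in those labelled Ch25h-/- Tau+. In Ch25h+/+ the groups did not overlap but lay close, with 2694 CPM the lowest Tau- and 2688 the highest Tau+ value. Its tau effect was -0.65 ± 0.17 (SE), adjusted p = 0.0216, a call missed if Ch25h+/+ Tau- replicate 3 was left out (adjusted p = 0.0512), within either set alone and with no filter on low counts. In the libraries labelled Ch25h-/- the Cst3 ranges overlapped. The pooled Cst3 level was 2356 CPM in microglia and 1920.2 CPM in barcodes under 100 UMIs. The part of free RNA in its values was not tested.

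Ly86, the secreted protein MD-1 that partners the Toll-like receptor relative RP105, rose. It read 1077, 1209, 1544 and 1147 CPM in Ch25h+/+ Tau-, 1759, 1360.1, 1512 and 1760.2 in Ch25h+/+ Tau+, 1067, 1282, 1439 and 1336 for libraries labelled Ch25h-/- Tau- and 1721, 1965, 1437 and 1805 in those labelled Ch25h-/- Tau+. Of the 8 Tau+ libraries 5 were above every Tau- library, and the means were 1244 ± 207 and 1598 ± 197 CPM in Ch25h+/+ Tau- and Tau+. Ly86 rose by 0.40 ± 0.09 (SE), adjusted p = 0.00677. Siglech, a sialic acid-binding lectin of microglia, read 748, 1113, 1796 and 1033 CPM in Ch25h+/+ Tau-, 404, 580.3, 1404 and 524 in Ch25h+/+ Tau+, 1074, 1081, 1459 and 1414 for libraries labelled Ch25h-/- Tau- and 561, 916, 1258 and 785 in those labelled Ch25h-/- Tau+. Its spread was wide, with replicate 3 the highest of every group. Siglech did not pass the test, at -0.61 ± 0.27 (SE), adjusted p = 0.223. Olfml3 and Fcrls did not pass either, at -0.82 ± 0.32 (adjusted p = 0.157) and -0.45 ± 0.30 (adjusted p = 0.457).

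The 2 transporters fell. Slc2a5 read 272, 229.7, 350.2 and 307 CPM in Ch25h+/+ Tau-, 66.4, 89.9, 173 and 78.2 in Ch25h+/+ Tau+, 153, 201, 199 and 246 for libraries labelled Ch25h-/- Tau- and 88.1, 101, 232 and 144 in those labelled Ch25h-/- Tau+. In Ch25h+/+ all Tau+ libraries were below all Tau- libraries, with means of 102 ± 48.2 and 289.8 ± 51.3 CPM (SD, n = 4), and in the libraries labelled Ch25h-/- they overlapped through replicate 3. Slc2a5 fell by 1.06 ± 0.22 (SE), adjusted p = 0.007. Slco2b1, an organic anion transporter, read 976, 869, 1126 and 1051 CPM in Ch25h+/+ Tau-, 515, 644, 909 and 604 in Ch25h+/+ Tau+, 909, 886, 1163 and 962 for libraries labelled Ch25h-/- Tau- and 627, 805, 907 and 794 in those labelled Ch25h-/- Tau+. Replicate 3 was again the highest of each Tau+ group and the other 3 libraries of each were below the Tau- range. Its tau effect was -0.46 ± 0.11 (SE), adjusted p = 0.00609.

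Of the 3 TGF-beta signalling members none fell and 1 rose. Tgfbr2, the type II receptor that binds the ligand, rose. It read 483, 570.1, 463 and 496 CPM in Ch25h+/+ Tau-, 741, 626, 491 and 567 in Ch25h+/+ Tau+, 422, 484, 614 and 494 for libraries labelled Ch25h-/- Tau- and 578, 727, 668 and 576 in those labelled Ch25h-/- Tau+. The ranges overlapped in both genotypes, and the tau effect was 0.31 ± 0.10 (SE), adjusted p = 0.0412, lost in 9 of the 16 fits that left out 1 library (highest adjusted p = 0.104). Tgfbr1, the type I receptor that carries the signal, and Smad3, its effector, had fold changes of -0.11 ± 0.07 (adjusted p = 0.411) and -0.23 ± 0.11 (adjusted p = 0.253) and were not called.

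Of the 4 transcription factors, Maf and Sall1 fell. Maf, a basic leucine zipper factor of macrophages, read 459, 609, 730.5 and 601 CPM in Ch25h+/+ Tau-, 298, 436, 512 and 402 in Ch25h+/+ Tau+, 572, 486, 707 and 655 for libraries labelled Ch25h-/- Tau- and 324, 368, 559 and 502 in those labelled Ch25h-/- Tau+. In Ch25h+/+ 3 of 4 Tau+ libraries were below every Tau- library, and in the libraries labelled Ch25h-/- 2 of 4 were. Its tau effect was -0.51 ± 0.13 (SE), adjusted p = 0.018. Sall1 read 327, 382, 320.0 and 303 CPM in Ch25h+/+ Tau-, 275, 230.4, 249 and 245 in Ch25h+/+ Tau+, 346, 330.3, 451 and 342 for libraries labelled Ch25h-/- Tau- and 293, 283, 351 and 309 in those labelled Ch25h-/- Tau+. All Ch25h+/+ Tau+ libraries were below all Ch25h+/+ Tau- libraries, while replicate 3 overlapped in the libraries labelled Ch25h-/-. Sall1 had -0.33 ± 0.09 (SE), adjusted p = 0.02, lost without Ch25h+/+ Tau+ replicate 2, Ch25h+/+ Tau- replicate 2 or replicate 3 of the libraries labelled Ch25h-/- Tau- (highest adjusted p = 0.0617). Ikzf1 and Fli1, factors shared with other blood cells, had -0.20 ± 0.08 (adjusted p = 0.112) and -0.12 ± 0.09 (adjusted p = 0.51).

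Inpp5d was the only called member among the 4 enzymes and regulators. It encodes SHIP1, a lipid phosphatase that dampens immune receptor signalling, and read 2329.9, 2419, 2530.2 and 3318 CPM in Ch25h+/+ Tau-, 1614, 1892, 2474 and 2016 in Ch25h+/+ Tau+, 2305, 2049.8, 2455 and 2958 for libraries labelled Ch25h-/- Tau- and 1744, 2157, 2402 and 1981 in those labelled Ch25h-/- Tau+. Replicate 3 of each Tau+ group lay within the Tau- range of its genotype, as did replicate 2 of the libraries labelled Ch25h-/- Tau+. The tau effect was -0.32 ± 0.10 (SE), adjusted p = 0.0432, lost in 12 of the 16 fits that left out 1 library (highest adjusted p = 0.116). Hpgds, the prostaglandin D synthase of blood-derived cells, Rgs10, a brake on G-protein signals, and Ltc4s, leukotriene C4 synthase, had -0.22 ± 0.08, -0.31 ± 0.11 and -0.34 ± 0.23, with adjusted p of 0.0705, 0.0835 and 0.452. Crybb1, a beta-crystallin known from the lens and found in microglia, read 67.3, 88.6, 177 and 179 CPM in Ch25h+/+ Tau-, 9.33, 32, 90.7 and 30.1 in Ch25h+/+ Tau+, 153, 109, 73.2 and 147 for libraries labelled Ch25h-/- Tau- and 36.5, 42.5, 75.6 and 54.9 in those labelled Ch25h-/- Tau+. Its lowest library, Ch25h+/+ Tau+ replicate 1, had 9 UMIs. Crybb1 fell by 1.55 ± 0.35 (SE), adjusted p = 0.0136, with both Tau+ replicates 3 within the Tau- range.

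**Figure D3:**
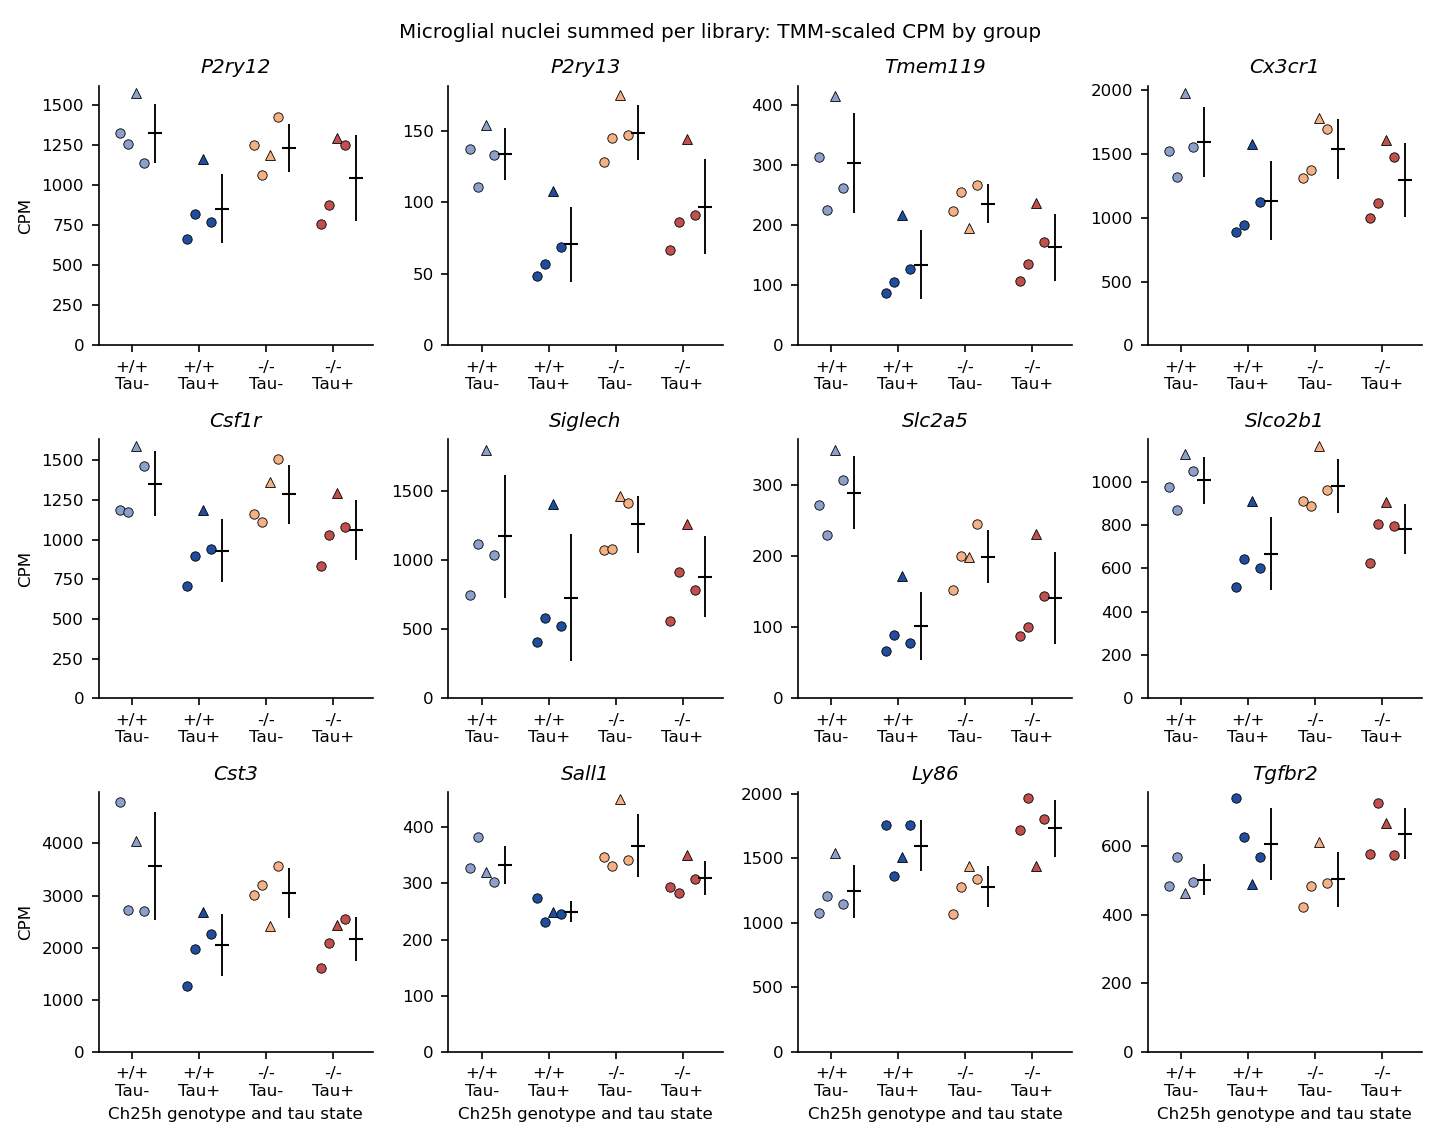
TMM-scaled CPM of 12 members in microglial nuclei, summed per library, by Ch25h genotype and tau state (4 libraries per group; triangles are replicate 3, the bar beside each group is the mean ± SD). In the Tau+ groups the triangle is the highest point for P2ry12, P2ry13, Tmem119, Cx3cr1, Csf1r, Siglech, Slc2a5 and Slco2b1, and Ly86 and Tgfbr2 are the panels in which the Tau+ means are higher.

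Within Ch25h+/+ alone 4 members fell and none rose, where 2.18% of all genes were called, 0.807% lower and 1.38% higher. With log2 fold changes ± SE, they were Slc2a5 (-1.59 ± 0.32, adjusted p = 0.0227), P2ry13 (-0.999 ± 0.24, adjusted p = 0.027), Tmem119 (-1.25 ± 0.28, adjusted p = 0.0316) and Slco2b1 (-0.60 ± 0.15, adjusted p = 0.0334). The median fold change was -0.50, and 20 members had an unadjusted p under 0.05, as had 15.0% of all genes. For 8 members all Tau+ libraries were below all Tau- libraries (P2ry13, Slc2a5, Tmem119, Cst3, Fcrls, Hpgds, Itgam and Sall1), against 3.39% of all genes. DESeq2 called 8 members and 240 of all 8428 genes, and with the set as a term 15 members and 416 of all 8428 genes were called. With predicted doublets kept P2ry13, Tmem119 and Slco2b1 lost their calls and Slc2a5 kept its call, while calls over all genes also fell. The count depended on single libraries: it was 15 without Ch25h+/+ Tau+ replicate 3 (523 of all 9034 genes), and 0 without replicate 1, 2 or 4 of that group (16, 48 and 28 of all genes) or replicate 1, 3 or 4 of Ch25h+/+ Tau- (47, 36 and 48 of all genes). It was 2 without Ch25h+/+ Tau- replicate 2 (50 of all 9046 genes), and 7 without replicate 1 or 3 of the libraries labelled Ch25h-/- Tau+ (215 of 8261 and 277 of 8281 genes). Calls over all genes thus also fell and rose, against 184 of 8428 with all libraries. Within set 1 the count was 13 (414 of all 9784 genes) with a median of -0.61. Within set 2 it was 0 with a median of -0.38, and there no gene of any kind was called.

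In the libraries labelled Ch25h-/-, no member was called for tau by edgeR, where 1.5% of all genes were. There 9 members had an unadjusted p under 0.05, as had 13.8% of all genes, and the median log2 fold change was -0.26. DESeq2 called 1 member and 219 of all 8428 genes. With the set as a term 4 members and 298 of all 8428 genes were called. Ly86 had the lowest adjusted p, at 0.44 ± 0.13 (SE), adjusted p = 0.0894. Entpd1 followed at -0.64 ± 0.19 (SE), adjusted p = 0.0895. The groups did not overlap for Itgam and Entpd1, both lower in Tau+, against 3.55% of all genes. Slc2a5, Tmem119, P2ry13 and Slco2b1 had -0.53 ± 0.31, -0.56 ± 0.27, -0.62 ± 0.22 and -0.32 ± 0.15. The count was 3 without replicate 3 of the libraries labelled Ch25h-/- Tau+ (325 of all 8281 genes, against 126 of 8428 with all libraries), 2 without Ch25h+/+ Tau+ replicate 3 (299 of 9034), and 1 without Ch25h+/+ Tau+ replicate 1 (177 of 8270). It was 8 without both Tau+ replicates 3 (499 of all 8647 genes). Within set 1 it was 9 (387 of all 9784 genes) with a median of -0.31. Within set 2 it was 0 with a median of -0.25. Calls over all genes in that fit are not given here, so this 0 is not read as a result about the members.

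The difference between the tau effects of the 2 genotypes was tested as an interaction, and no member was called, as for 0% of all 8428 genes. DESeq2 called no member, and its calls over all genes are not given here, so this is not read as a result about the members. By unadjusted p 1 member was under 0.05, a share near the 3.57% of all genes. The 1 member was Slc2a5, at 1.06 ± 0.44 (SE), adjusted p = 1 and a 95% interval of 0.10 to 2.02 (from the SE with 12 degrees of freedom). For Tmem119 the interval was -0.16 to 1.54, for P2ry12 -0.14 to 0.94 and for Cx3cr1 -0.31 to 0.81. A difference between genotypes was thus not shown, and intervals of this width do not show that the effects were alike. Of the 29 differences 26 were positive, with a median of 0.18 where that of all genes was 0.01.

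Ch25h loss changed no member past the threshold, in Tau+ or in Tau- microglia, where 0% of all genes were called in either. In Tau+ 28 of 29 fold changes were positive with a median of 0.18 (median of all genes 0.00), and 2 members had an unadjusted p under 0.05 by edgeR, where 3.06% of all genes had. DESeq2 called no member. These were Sall1 at 0.30 ± 0.12 (SE), adjusted p = 1 and P2ry13 at 0.52 ± 0.22 (SE), adjusted p = 1. For Sall1 all 4 libraries labelled Ch25h-/- Tau+ were above all 4 Ch25h+/+ Tau+ libraries, against 1.35% of all genes. The means were 309 ± 30.1 and 249.8 ± 18.5 CPM. In Tau- 13 of 29 fold changes were positive with a median of -0.01, and none had an unadjusted p under 0.05, where 3.22% of all genes had (DESeq2 called no member). DESeq2's calls over all genes are not given here for either tau state, so its counts are not read as a result about the members. Ch25h loss in Tau+, the tau effect in Ch25h+/+ and the interaction share the Ch25h+/+ Tau+ libraries, so their signs are not independent. The members were read in the same nuclei, so the signs of different members are not independent either. Of all genes 49.9% had a negative fold change for Ch25h loss in Tau+, 50.9% in Tau- and 48.9% for the interaction. For Tmem119, Ch25h loss gave 0.34 ± 0.27 in Tau+ (95% interval -0.26 to 0.94) and -0.35 ± 0.28 in Tau- (-0.95 to 0.25).

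Within the same Tau+ mice, microglial nuclei with activation transcripts had lower levels of many homeostatic genes than nuclei without them. Nuclei were thinned to 800 UMIs and split by the 10 activation transcripts named above, none of them a member. This gave 1818 nuclei with and 1536 without, at least 59 and 150 in a library, after 67 shallower nuclei were left out. With the library as a block, 15 of the 28 members that passed the filter (Crybb1 did not) were called, all lower, where 7.73% of 3558 genes were called (3.91% lower and 3.82% higher). The median of the 28 was -0.31 and that of all genes -0.01. DESeq2 called 9, all of them among the 15, and 93 of all genes. The 10 transcripts themselves were left out of this test. The SE and p-values of this test also draw on the spread of all genes. They do not measure the spread between the Tau+ libraries alone.

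Siglech had 650.0, 706, 1413 and 781 CPM without and 333, 384, 996 and 329.6 CPM with activation transcripts in Ch25h+/+ Tau+, and 776, 1163, 1182 and 774 without and 456, 691, 1074 and 675 with them in the libraries labelled Ch25h-/- Tau+. It was lower in the nuclei with activation transcripts in 8 of 8 libraries, at -0.66 ± 0.08 (SE), adjusted p = 4.99e-11. Ltc4s had 175, 239, 369.8 and 275 CPM without and 112, 98.7, 275 and 146 CPM with activation transcripts in Ch25h+/+ Tau+, and 278, 244, 285 and 260.2 without and 83.3, 202, 215 and 204 with them in the libraries labelled Ch25h-/- Tau+. It too was lower in 8 of 8 libraries, at -0.71 ± 0.14 (SE), adjusted p = 4.91e-05. Neither gene had passed the test between Tau+ and Tau- libraries. P2ry12 was lower in 7 of 8 libraries, the exception being Ch25h+/+ Tau+ replicate 3, at -0.50 ± 0.08 (SE), adjusted p = 1.02e-07. Cst3 and Csf1r were lower in 8 of 8, at -0.42 ± 0.06 (SE), adjusted p = 2.52e-09 and -0.27 ± 0.07 (SE), adjusted p = 0.00553.

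The other called members were Slc2a5 (-0.66), Tmem119 (-0.54), Entpd1 (-0.46), Selplg (-0.45), Itgam (-0.42), Maf (-0.38), Slco2b1 (-0.37), Cx3cr1 (-0.33), Gpr34 (-0.31) and Inpp5d (-0.18). DESeq2 did not call Csf1r, Gpr34, Inpp5d, Maf, Slc2a5 and Tmem119. Thinning to 500 UMIs lost the edgeR calls of Entpd1 (adjusted p = 0.67), Inpp5d, Slc2a5, Slco2b1 and Tmem119. Without thinning Gpr34 and Tmem119 were lost. A cut of 2 or more activation UMIs lost no call. Sall1 and P2ry13, which fell with tau, had -0.14 ± 0.12 (SE), adjusted p = 0.618, and -0.32 ± 0.22 (SE), adjusted p = 0.489, and were lower in 3 and 4 of 8 libraries. Ly86 and Tgfbr2, which rose with tau, had 0.11 ± 0.06 (SE), adjusted p = 0.353, and 0.21 ± 0.09 (SE), adjusted p = 0.136. Tgfbr1 had 0.01 and Smad3 0.04.

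**Figure D4:**
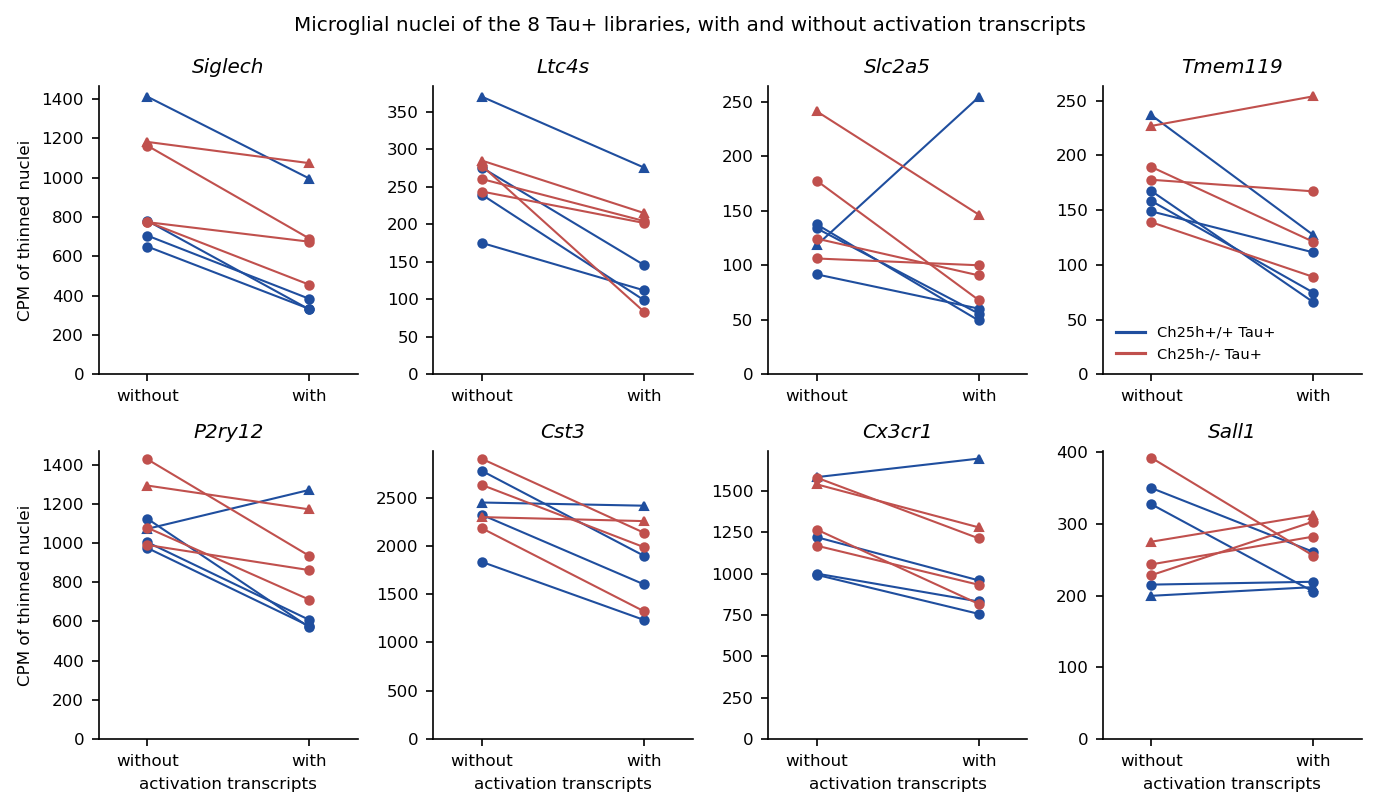
CPM of 8 members in microglial nuclei without and with activation transcripts, each nucleus thinned to 800 UMIs; each line joins the parts of 1 Tau+ library (blue Ch25h+/+, red Ch25h-/-, triangles replicate 3). Lines for Siglech, Ltc4s and Cst3 fall in 8 of 8 libraries, while those for Sall1 go both ways.

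Of 26 other genes described as homeostatic in microglia, 8 fell with tau over both genotypes and none rose, where 3.65% of all genes fell and 5.22% rose. The list median was -0.19 and that of all genes -0.01. The related lists were chosen with earlier results of these data known, so their shares are a description. Vsir, a checkpoint protein of the cell surface, read 444 to 643 CPM in the 8 Tau- and 238 to 467 CPM in the 8 Tau+ libraries (-0.68 ± 0.13, adjusted p = 0.00153). Srgap2, a regulator of the actin skeleton, had -0.48 ± 0.11 (SE), adjusted p = 0.00586. Golm1 had -0.47 ± 0.12 (SE), adjusted p = 0.0165. Dock8, also a marker used to name the microglia, had -0.28 ± 0.07 (SE), adjusted p = 0.0148. Of 16 other microglial transcription factors 2 fell, Zfhx3 (-0.54 ± 0.11, adjusted p = 0.00302) and Tal1 (-0.51 ± 0.14, adjusted p = 0.0255), and none rose. Irf8, a factor of the macrophage lineage, had 0.36 ± 0.12 (SE), adjusted p = 0.053.

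Of 18 further TGF-beta pathway genes 12 could be tested and none was called for tau over both genotypes. The ligand Tgfb1 read 156 to 213 CPM in the 8 Tau- and 106 to 193 CPM in the 8 Tau+ libraries and had -0.32 ± 0.11 (SE), adjusted p = 0.0687. Csf1, the ligand of Csf1r and also a disease-associated gene, read 1.99 to 20.1 CPM in the 8 Tau- and 24.6 to 211 CPM in the 8 Tau+ libraries and rose by 3.06 ± 0.51 (SE), adjusted p = 0.00246. Of 22 disease-associated genes tested 17 rose and none fell, against the same shares of all genes, with a list median of 1.09. B2m, the light chain of MHC class I, read 88.6 to 151 CPM in the 8 Tau- and 119.9 to 278 CPM in the 8 Tau+ libraries (0.92 ± 0.15, adjusted p = 0.000549). These genes include the 10 used to split the nuclei.

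Markers of other cell types were also counted in the microglial sums, and are given by group, Ch25h+/+ before Ch25h-/- and, within each genotype, Tau- before Tau+. The astrocyte list was the highest, at 386 to 529.9, 322 to 493, 407 to 539 and 338 to 522 CPM over 7 markers. This sum over 7 genes is above the pooled level of low single members, which is an unlike measure. Tmem119, Slc2a5 and Crybb1 read 171, 145 and 63.5 CPM in microglia. In barcodes under 100 UMIs they read 14.1, 5.93 and 1.45 CPM. Oligodendrocyte markers summed to 286 to 402, 239.8 to 416, 196 to 319 and 259.9 to 417 CPM, and DG granule neuron markers to 278 to 355, 246 to 329, 305 to 346 and 188 to 349 CPM. Choroid plexus markers varied most between libraries, at 0 to 296, 187 to 357, 15.1 to 264 and 1.63 to 328 CPM.

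Markers of border-associated macrophages, the type closest to microglia, summed to 2.30 to 12.9, 5.58 to 41.2, 0 to 7.44 and 4.03 to 35.9 CPM, with 4, 2, 5 and 4 of the 7 at 0 in the group. Their mean sum was thus higher with tau, at 27.2 ± 16.7 against 7.51 ± 4.35 CPM in Ch25h+/+ and 14.9 ± 14.8 against 3.66 ± 4.23 CPM in the libraries labelled Ch25h-/- (SD, n = 4). None of the 7 passed the filter on low counts, so none was tested, nor was any marker of T and NK cells, neutrophils, oligodendrocyte precursors, newly formed oligodendrocytes, mural cells, fibroblasts or ependymal cells. Of the markers of other types that could be tested, tau over both genotypes lowered 1 of 2 of other excitatory neurons and raised 1 of 2 of endothelial cells. Their part in the members' values was not tested.

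In 5 other classes (DG granule, CA pyramidal and inhibitory neurons, astrocytes and oligodendrocytes), 9 to 14 of the members passed the filter. None of 295 combinations of member, class and contrast was called by edgeR, where 0.0406% of all gene, class and contrast combinations were, and 23 of the 295 (7.80%) had an unadjusted p under 0.05, as had 5.30% of all gene, class and contrast combinations. DESeq2 called 1, Tgfbr1 in DG granule neurons for tau in the libraries labelled Ch25h-/-, where edgeR gave -0.54 ± 0.13 (SE), adjusted p = 0.163. DESeq2's calls over all genes in that class are not given here, so this call is not read as a result about the members. Over both genotypes, where 3.44% of genes were called in astrocytes, Tgfbr2 in astrocytes came nearest, at 0.59 ± 0.17 (SE), adjusted p = 0.0583. Cst3 in astrocytes, where it was also abundant, had -0.38 ± 0.26 (SE), adjusted p = 0.574 for tau over both genotypes.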

How the data were processed

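The deposited matrices hold UMI counts per gene and barcode for all barcodes; the file headers name Cell Ranger 4, whereas the submitters' processing notes list mm10, Cell Ranger 3.1.0 and Seurat, and the kit was version 3.1 of the 10x 3' chemistry per the labels. Whether intronic reads were counted is not given in the sources used here. Clec7a was not analysed here, and 1 naming marker is not reported here.

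Barcodes with at least 500 UMIs, 300 genes and at most 5% mitochondrial UMIs (147873) were taken as nuclei. Doublets were scored by Scrublet's method, rewritten (2 simulated per nucleus), and the top 0.8% per 1000 nuclei were removed, leaving 136828. Nuclei were clustered (3000 variable genes, 50 components, 20 neighbours, Leiden resolution 1) and each took the name whose fixed markers had the highest mean log2 fold over all other nuclei, among names with at least 3 markers 2-fold higher and detected in at least 1% of its nuclei. Names other than those of neurons also needed a mean log2 fold of at least 1, and clusters that matched neutrophils or newly formed oligodendrocytes were left unnamed. No limit on UMI count per nucleus was used for naming, for microglia or any other class. Of 56 clusters 14 stayed unnamed.

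Counts were summed per library and class and tested with edgeR 4.0.16 (TMM, filterByExpr, robust quasi-likelihood, 1 mean per group, two-sided, Benjamini-Hochberg over all genes). CPM per library are TMM-scaled, and levels by class are pooled CPM. DESeq2 1.42.0, limma-voom 3.58.1 and other settings were alternatives. The fit was tested on simulated microglial data for the tau effect in Ch25h+/+. It called 49% of 2-fold and 98% of 4-fold changes, and 2.05% of its calls were false. Smaller changes, the split between the sets of replicates and the deviating Tau+ libraries were not simulated. These shares may therefore not hold for the real libraries. The labels do not say how mice were housed or processed, so p-values concern these samples only. For each gene edgeR's estimate of spread also draws on all genes. Coordinates are GENCODE M21 (GRCm38). Values per library are given for members called in any contrast and for P2ry12, Tmem119, Cx3cr1, Csf1r, Siglech and Sall1; of each related list, up to 4 genes with the lowest p for tau over both genotypes. The members and lists were chosen with earlier results of these data known.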

Additional observations from a re-analysis of the deposited data

Results flagged for a closer look

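In each group of 4 libraries, the gap between the extreme value and its neighbour was set against the group's range for 19 members (76 groups); chance alone exceeds Dixon's limit in about 1 of 20 groups. It was exceeded in 2. Itgam in Ch25h+/+ Tau- replicate 3 read 840 CPM (839.7), against 574 to 584 in the other 3 libraries. Sall1 in replicate 3 of the libraries labelled Ch25h-/- Tau- read 451 CPM, against 330.3 to 346. In both cases the library lay above the rest of its Tau- group, and without it the tau effect over both genotypes on Sall1 was no longer called, while Itgam remained called in each of the 16 fits that left out 1 library.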

How the results depend on the processing

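Counts of members called for the tau effect in Ch25h+/+ (4), in the libraries labelled Ch25h-/- (0) and over both genotypes (17) moved with the processing. Of all 8428 genes 184, 126 and 748 were called. DESeq2 gave 8 and 1 within the genotypes, with 240 and 219 of all 8428 genes. No filter on low counts gave 11 and 2, with 499 and 430 of all 21503 genes. Set 1 or 2 as a term gave 15 and 4, with 416 and 298 of all 8428 genes. Set 1 alone gave 13 and 9, with 414 and 387 of all 9784 genes. Over both genotypes these settings gave 17, 16, 20 and 18 members, with 720, 1067, 983 and 927 of all genes. Set 2 alone gave 0 in Ch25h+/+ and 0 over both genotypes, with 0 and 5 of all 7533 genes. Keeping predicted doublets gave 1, 1 and 9, with 64, 244 and 961 of all 11285 genes. Leaving out both Tau+ replicates 3, chosen after the data were seen, gave 16 and 8, with 630 and 499 of all 8647 genes. Leaving out 1 library gave 0 to 15 in Ch25h+/+, 0 to 3 in Ch25h-/- and 12 to 21 over both, with 16 to 523, 16 to 325 and 532 to 1016 of all genes. Further settings were library totals in place of TMM, limma-voom, nuclei of at least 1000 UMIs and clusters without the members. These gave 3 or 4 in Ch25h+/+, 0 in Ch25h-/- and 15 to 17 over both. Calls over all genes are not given here for them, except above for nuclei of at least 1000 UMIs over both genotypes. Ch25h loss and the interaction gave 0 in every setting run. The main fit called 0% of all genes for these contrasts. Calls over all genes in the other settings are not given here, so these counts are not read as a result about the members. In the other classes DESeq2 and set 1 alone (both Tgfbr1, DG granule neurons), set 2 alone (Smad3, CA pyramidal neurons), set as a term (Entpd1, astrocytes) and leaving out replicate 3 of the libraries labelled Ch25h-/- Tau+ (Tgfbr1 again) gave 1 call each; leaving out 1 library gave 0 to 1. Calls over all genes are not given here for these fits of the other classes, so their counts are not read as a result about the members. Between nuclei with and without activation transcripts 15 members and 275 of all 3558 genes were called. The 15 became 9 with DESeq2, where calls over all genes also fell. Without 1 library they became 12 to 15, and calls over all genes are not given here for those fits. The cause was not tested. Of 747 alternatives for single called members 603 kept call and direction, 144 lost the call and 0 changed sign. Most of these fits share nearly all libraries with the main fit and are not independent of it. Set 2 alone kept no tau call. No paired analysis was possible because the labels carry no replicate numbers: those used here name libraries in accession order and pair no mice, and the term for set 1 or 2 was chosen from the data and is no pairing. Depth limits low members: P2ry13 had at least 29 UMIs in a library and Crybb1 at least 9, in 160 to 597 nuclei.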

Other observations

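The ligands of several member receptors were found in different classes, given as pooled CPM without a test. Tgfb1 read 155 CPM in microglia against 0.613 in astrocytes and 0.118 in CA pyramidal neurons. Tgfb2 read 72.5 CPM in astrocytes, 69.2 in DG granule neurons and 4.90 in microglia. Il34 read 23.6 CPM in CA pyramidal neurons, 22.5 in other excitatory neurons and 2.34 in microglia, whereas Csf1, the other ligand of Csf1r, read 47.4 CPM in astrocytes and 86.2 in microglia. The microglial Csf1 value pools libraries that ranged from 1.89 to 206 CPM before TMM scaling. Cx3cl1, the ligand of Cx3cr1, read 63.5 CPM in DG granule neurons, 88.3 in other excitatory neurons and 13.2 in microglia.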
